A study of Mus musculus with 29 samples.

Results

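The comparison was a genotype by time interaction in the aortic arch of mice fed ad libitum (AL): the change from 6 to 22 weeks in Ercc1Δ/− mice minus the same change in wild-type (WT) littermates. It asked which genes changed with time differently in the 2 genotypes, and which were instead already offset at 6 weeks by an amount that then stayed within bounds. It used 18 of the 29 RNA samples of the series, 1 sample per mouse: 5 WT at 6 weeks (3 male, 2 female), 4 WT at 22 weeks (3 male, 1 female), 5 Ercc1Δ/− at 6 weeks (3 male, 2 female) and 4 Ercc1Δ/− at 22 weeks (2 male, 2 female). A further 10 mice of 22 weeks on dietary restriction (DR), 5 WT and 5 Ercc1Δ/−, served as a look-up outside the comparison, and 1 WT library of 22 weeks with few counts (sample 003) was used only as an alternative. All mice were F1 hybrids of C57BL6J and FVB, and Ercc1Δ/− mice carried a Δ allele and a null allele of Ercc1 in every cell type, so no effect can be assigned to a cell of the vessel wall. In the DR mice food was reduced in steps from young adulthood on.

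ERCC1 pairs with XPF to form a nuclease that cuts damaged DNA in nucleotide excision repair and in the repair of crosslinks. Mice with little of it age early in many organs. The aortic wall consists of elastic lamellae and collagen made and held by smooth muscle cells, with an inner endothelium and an outer adventitia of fibroblasts, macrophages and fat. Matrix genes are normally expressed at high levels in the growing aorta of young animals and at lower levels in adults.

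Ercc1 itself, the deleted gene (chr7:19075881-19090450 in GRCm39, the build of all gene positions given here), was lower in Ercc1Δ/− mice at both ages. Its normalized counts, which are counts per TMM-scaled library brought to a common size of 3683502, were 119, 117, 52.2, 82.8 and 136 in WT mice at 6 weeks, 127, 110.1, 108 and 114 in WT at 22 weeks, 31.2, 41.0, 42.1, 38.2 and 56.3 in Ercc1Δ/− at 6 weeks and 54.1, 54.6, 69.8 and 57.2 in Ercc1Δ/− at 22 weeks. The genotypes did not overlap at 22 weeks, while 1 WT library at 6 weeks came down to the Ercc1Δ/− range. The difference was −1.41 at 6 weeks and −0.97 at 22 weeks on the log2 scale. Totals on genes ran from 955589 to 9616382 counts over the 18 libraries. The 4 Ercc1Δ/− libraries of 22 weeks (1294980 to 3855444) lay below the 4 WT libraries of that age (3903589 to 9616382), and their share of mitochondrial counts was higher (5.37 to 5.96% against 2.47 to 3.72%). Fewer cells of a type and less RNA per cell cannot be told apart in these tissue samples.

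Of 12353 genes tested, 104 (0.842%) had an interaction at an adjusted p of at most 0.05, 46 positive (0.372%) and 58 negative (0.470%). A positive value means that the gene moved upward with time in Ercc1Δ/− relative to WT. Without adjustment, 1409 genes had p under 0.05. The median over all genes tested was 0.01, so the values below stand against a centre near 0. Positive interactions ran from 0.51 to 6.46 on the log2 scale with a median of 1.39, and negative ones from −0.57 to −3.44 with a median of −0.95. At 6 weeks a genotype difference was called in 8 of the 104, against 210 of all genes (1.70%). Ercc1Δ/− had the higher level in 70 of those (0.567% of genes tested) and the lower in 140 (1.13%). At 22 weeks 101 of the 104 were called in the direction of their interaction, against 1487 of all genes (12.0%), 726 higher (5.88%) and 761 lower (6.16%). These contrasts share samples with the interaction, so the counts describe the genes and do not support them.

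With time in Ercc1Δ/−, 579 of all genes were called (4.69%), 261 rising (2.11%) and 318 falling (2.57%). In WT there were 29 (0.235%), 12 rising (0.0971%) and 17 falling (0.138%). Among the 104 genes, 90 were called with time in Ercc1Δ/− and 8 in WT, 4 of them in both. By fitted values the time change was larger in Ercc1Δ/− in 94 and larger in WT in 10, and it had opposite signs in the 2 genotypes in 69. The genotype difference widened between the ages in 51 genes, turned from one sign to the other in 52, and narrowed in 1. In 30 of the 46 positive genes every Ercc1Δ/− library of 22 weeks lay above all other 14 libraries (179 of all genes, 1.45%), and in 42 of the 58 negative genes every one lay below them (166 of all genes, 1.34%). Leaving out the WT mouse 018, the only female of the WT mice of 22 weeks, left 55 interactions called, 49 of them among the 104, and 45 of the 104 were called in each of the 18 fits that left out 1 mouse. Values without this mouse are given below for the called members of the gene lists that lost their call without it.

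**Figure D1:**
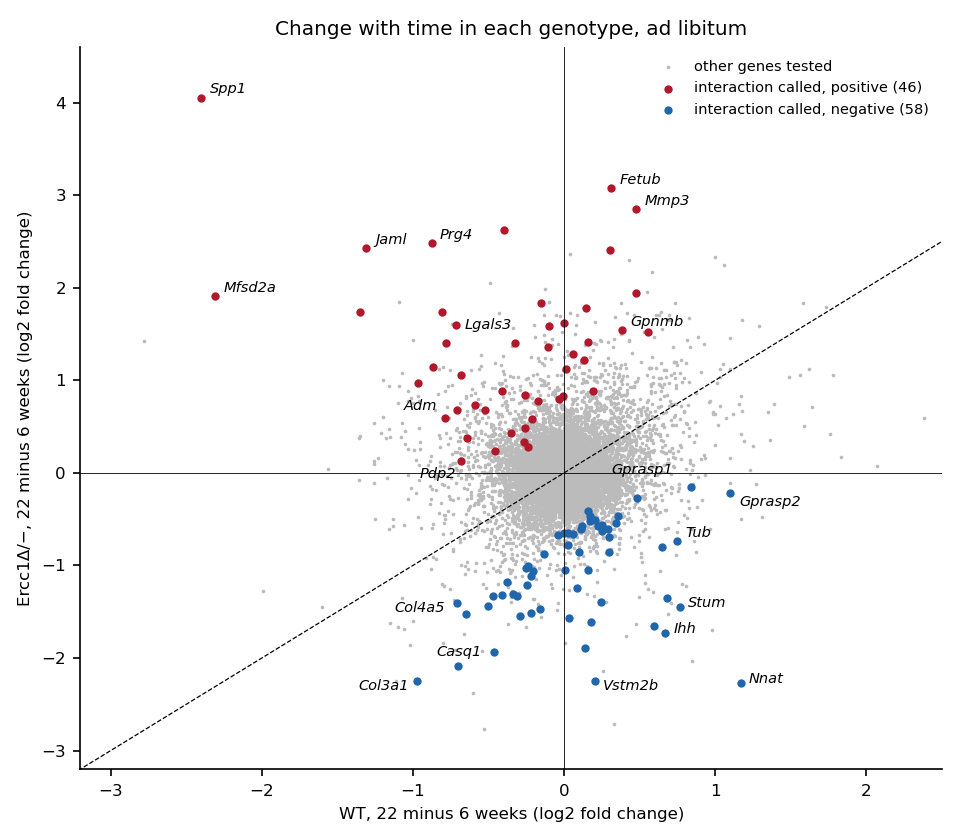
Change from 6 to 22 weeks in WT (horizontal) and in Ercc1Δ/− mice (vertical), both as log2 fold changes, for the genes tested. Grey points are genes with no interaction called, red points the 46 positive and blue points the 58 negative interaction genes, the dashed line marks equal change in both genotypes, and 2 genes lie outside the axes. Most coloured points spread vertically, with large changes in Ercc1Δ/− and small ones in WT.

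The largest positive interaction belonged to Spp1 (chr5:104582165-104589235), which encodes osteopontin, a secreted phosphoprotein of macrophages, activated smooth muscle and mineralising tissue. Its normalized counts were 47.6, 5.46, 16.1, 14.3 and 26.0 in WT mice at 6 weeks, 3.88, 6.91, 6.84 and 2.28 in WT at 22 weeks, 21.4, 6.52, 22.7, 9.00 and 3.13 in Ercc1Δ/− at 6 weeks and 252, 143, 201 and 234 in Ercc1Δ/− at 22 weeks. Every Ercc1Δ/− mouse of 22 weeks lay above all other mice, and WT values were lower at 22 weeks than in most WT mice of 6 weeks. The interaction was 6.46 ± 0.72 (SE, adjusted p = 0.000354). It combined a rise of 4.05 in Ercc1Δ/− with a change of −2.40 in WT that was not called.

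Spp1 headed a group of genes that mark lipid-laden macrophages. Of 29 such genes, 22 were tested, and 4 had a positive and 0 a negative interaction: Spp1, Lgals3, Gpnmb and Abcg1. Their list had a median interaction of 0.77, with 20 of 22 values above 0, and a median genotype difference of 0.16 at 6 weeks and 1.01 at 22 weeks. Lgals3 (chr14:47605208-47623624) encodes galectin-3, a lectin of phagocytes. Its values were 100.4, 77.5, 84.4, 77.1 and 135 in WT mice at 6 weeks, 63.1, 45.6, 72.6 and 63.4 in WT at 22 weeks, 69.2, 64.2, 85.9, 77.6 and 75.1 in Ercc1Δ/− at 6 weeks and 270.5, 179, 195 and 256 in Ercc1Δ/− at 22 weeks. All 4 Ercc1Δ/− mice of 22 weeks exceeded every other mouse, and the genotypes overlapped at 6 weeks. The interaction was 2.32 ± 0.26 (SE, adjusted p = 6.99e-05), and the gene rose by 1.60 in Ercc1Δ/−.

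Gpnmb, a lysosomal glycoprotein of lipid-loaded phagocytes, had 94.4, 87.3, 44.2, 77.1 and 72.8 in WT mice at 6 weeks, 114, 106, 108 and 87.0 in WT at 22 weeks, 69.2, 88.5, 84.3, 74.3 and 53.2 in Ercc1Δ/− at 6 weeks and 239.9, 184, 212 and 234 in Ercc1Δ/− at 22 weeks. Again the Ercc1Δ/− mice of 22 weeks stood above all others, while the genotypes lay together at 6 weeks. Its interaction was 1.16 ± 0.22 (SE, adjusted p = 0.0111). For Abcg1, which exports cholesterol, it was 1.99 ± 0.40 (SE, adjusted p = 0.0135) and lost its call without WT mouse 001 of 6 weeks, with a genotype difference of 0.16 at 6 weeks and 2.15 at 22 weeks.

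Of 18 genes of resident macrophages, 16 were tested, and 0 had an interaction called by edgeR (1 positive and 1 negative at p under 0.05 without adjustment, and 0 positive and 1 negative called by DESeq2). Their summed normalized count was 5684 to 6558 in WT at 6 weeks, 6052 to 7077 in WT at 22 weeks, 6643 to 8559 in Ercc1Δ/− at 6 weeks and 7707 to 9829 in Ercc1Δ/− at 22 weeks, with no marker at 0. The Ercc1Δ/− sums lay above the WT range at both ages, and its part in the rise of Spp1, Lgals3, Gpnmb and Abcg1 was not tested. Cd68, a lysosomal protein of macrophages, was higher at 6 weeks (1.25, adjusted p = 0.0269) and at 22 weeks (2.09, adjusted p = 2.99e-05), and its interaction was 0.84 (adjusted p = 0.429), not called. The sum of 15 monocyte and neutrophil markers was 686.4 to 1118 in Ercc1Δ/− and 761.4 to 975.3 in WT at 22 weeks, with Ly6g, Mpo and Fcnb at 0 in all 4 groups. Of the 3 tested, 0 had an interaction called by edgeR or DESeq2 (1 positive at p under 0.05 without adjustment), their median interaction was 0.83, and 2 were higher at 22 weeks.

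The sums of the lymphocyte markers were low. That of 17 T and NK cell markers was 256.4 to 261.3 in Ercc1Δ/− and 114.5 to 227.3 in WT at 22 weeks, without overlap, and 152.7 to 234.7 and 153.7 to 247.0 at 6 weeks, with Nkg7 and Klrb1c at 0 in both groups of 22 weeks. That of 13 B and plasma cell markers was 55.69 to 111.6 and 24.25 to 51.27 at 22 weeks, again without overlap, and 31.50 to 58.65 and 15.86 to 91.38 at 6 weeks, with Iglc2 at 0 in both groups of 22 weeks and Mzb1 at 0 in Ercc1Δ/− at both ages. In each of these 2 lists 1 gene was tested, and 0 had an interaction called by edgeR or DESeq2 (0 at p under 0.05 without adjustment). For the tested B and plasma cell gene the interaction was 0.44, and −0.18 without WT mouse 001 of 6 weeks. The part of leukocyte content in the macrophage gene values was not tested.

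Matrix proteases and their inhibitors had the most positive calls of any list, 6 of 40 tested, with 1 negative. Mmp3 (chr9:7445822-7455975), the protease stromelysin-1, had 24.2, 26.2, 4.02, 17.1 and 17.5 in WT mice at 6 weeks, 35.9, 17.5, 41.9 and 26.6 in WT at 22 weeks, 21.4, 23.3, 19.4, 27.0 and 18.8 in Ercc1Δ/− at 6 weeks and 149.7, 141, 201 and 149 in Ercc1Δ/− at 22 weeks. Its Ercc1Δ/− values at 22 weeks were separate from and above all others, and the genotypes overlapped at 6 weeks. The interaction was 2.37 ± 0.33 (SE, adjusted p = 0.000749), with a rise of 2.85 in Ercc1Δ/−. Htra4, a secreted serine protease, had an interaction of 1.69 ± 0.20 (SE, adjusted p = 0.000125), and Adam8, a membrane protease of leukocytes, one of 2.19 ± 0.48 (SE, adjusted p = 0.0246), called in 12 of 18 fits without 1 mouse and 2.24 (adjusted p = 0.0803) without WT mouse 018.

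The called genes of the list included 3 protease inhibitors, Timp1, Timp4 and Serpina3n. Timp1, an inhibitor of matrix metalloproteases, had 42.3, 42.5, 60.3, 45.7 and 128 in WT mice at 6 weeks, 40.8, 29.9, 46.1 and 38.0 in WT at 22 weeks, 82.9, 62.4, 85.9, 67.5 and 75.1 in Ercc1Δ/− at 6 weeks and 162, 114, 181 and 222 in Ercc1Δ/− at 22 weeks. A WT mouse of 6 weeks reached the lower Ercc1Δ/− values of 22 weeks, so the groups overlapped across ages, although they did not at 22 weeks. Its interaction of 2.00 ± 0.45 (SE, adjusted p = 0.043) was called in 5 of the 18 fits that left out 1 mouse, and was 1.81 (adjusted p = 0.167) without WT mouse 018. Timp4 had 1.30 ± 0.25 (SE, adjusted p = 0.00981), and Serpina3n, an acute phase inhibitor of serine proteases, 1.72 ± 0.32 (SE, adjusted p = 0.0127). The membrane-bound Mmp17 went the other way with −0.63 ± 0.13 (SE, adjusted p = 0.0174), or −0.64 (adjusted p = 0.053) without WT mouse 018. The list's median was −0.03 and was above 0 in 5 of those 18 fits.

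Acute phase and iron genes formed the next group. Of 27, 19 were tested, 3 had a positive interaction (Cp, Ftl1 and Serpina3n) and 0 a negative one, and the list's median was 0.64. Cp (chr3:20011090-20063930) encodes ceruloplasmin, the copper-carrying oxidase that loads iron onto transferrin. Its values were 191, 193, 193, 226 and 186 in WT mice at 6 weeks, 195, 195, 175 and 163 in WT at 22 weeks, 249.6, 203, 249.5, 209 and 172 in Ercc1Δ/− at 6 weeks and 524, 628, 619.5 and 468 in Ercc1Δ/− at 22 weeks. The 4 Ercc1Δ/− mice of 22 weeks lay far above the other 14, which covered a narrow range. With 1.47 ± 0.17 (SE, adjusted p = 6.99e-05), Cp shared the smallest adjusted p with Lgals3, and it was called under each alternative tried, males alone included. Ftl1, the ferritin light chain, had 0.69 ± 0.16 (SE, adjusted p = 0.0355), called in 5 of 18 fits without 1 mouse and 0.67 (adjusted p = 0.115) without WT mouse 018.

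Complement C4b was the 1 called gene of 20 complement genes tested (list median 0.50). Its normalized counts were 492, 711, 462, 439.6 and 349 in WT mice at 6 weeks, 628, 529, 926 and 759.9 in WT at 22 weeks, 599, 355, 1040, 664 and 707 in Ercc1Δ/− at 6 weeks and 2173, 2362, 2933 and 2329 in Ercc1Δ/− at 22 weeks. The Ercc1Δ/− mice of 22 weeks were all above every other mouse, and 1 Ercc1Δ/− mouse of 6 weeks was above the WT range. The interaction was 1.46 ± 0.29 (SE, adjusted p = 0.0186), and 1.43 (adjusted p = 0.0811) without WT mouse 018. Its neighbour Tnxb, a tenascin of the collagen matrix 8565 bases away on chr17, moved in the opposite direction (−0.90 ± 0.17, SE, adjusted p = 0.00972).

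Vcam1 (chr3:115903598-115923355) encodes an adhesion molecule that leukocytes bind on activated endothelium and smooth muscle, and was the 1 called gene of 15 chemokine and adhesion genes tested. It had 299, 262, 338, 208 and 323 in WT mice at 6 weeks, 249, 328, 378 and 298 in WT at 22 weeks, 494, 515, 421, 318 and 238 in Ercc1Δ/− at 6 weeks and 1090, 1122, 904 and 1199 in Ercc1Δ/− at 22 weeks. The Ercc1Δ/− mice of 22 weeks stood above all others, with some Ercc1Δ/− mice of 6 weeks above the WT range of that age. The interaction was 1.25 ± 0.26 (SE, adjusted p = 0.0264), called in 8 of 18 fits without 1 mouse and 1.23 (adjusted p = 0.0952) without WT mouse 018.

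The metallothioneins Mt1 and Mt2, which bind zinc and copper and are induced by metals and glucocorticoids, lie 5503 bases apart on chr8 and rose together. Mt2 had 124, 251, 233, 371 and 209 in WT mice at 6 weeks, 150.4, 113, 162 and 152 in WT at 22 weeks, 257, 185, 216, 336 and 197 in Ercc1Δ/− at 6 weeks and 444, 526, 555 and 478 in Ercc1Δ/− at 22 weeks. WT mice of 22 weeks were low, Ercc1Δ/− mice of 22 weeks were above all others, and the genotypes overlapped at 6 weeks. Its interaction was 1.74 ± 0.34 (SE, adjusted p = 0.0179), or 1.61 (adjusted p = 0.0803) without WT mouse 018, and that of Mt1 was 1.32 ± 0.25 (SE, adjusted p = 0.0127). The transcripts are alike enough in sequence that reads could be shared between them.

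The promoters of Mt2, Mt1 and Mmp3 are shown because metal response elements and AP-1 sites are textbook features of metallothionein and stromelysin promoters. The windows run from 250 bases before to 30 after the start of transcription, in GRCm38.p6 coordinates of RefSeq, an earlier build than that of the counts, and capitals mark matches on either strand to a metal response element (TGCGCNC or TGCACNC) for the metallothioneins and to an AP-1 site (TGACTCA) for Mmp3.
Mt2 chr8:94172368-94172647 (+): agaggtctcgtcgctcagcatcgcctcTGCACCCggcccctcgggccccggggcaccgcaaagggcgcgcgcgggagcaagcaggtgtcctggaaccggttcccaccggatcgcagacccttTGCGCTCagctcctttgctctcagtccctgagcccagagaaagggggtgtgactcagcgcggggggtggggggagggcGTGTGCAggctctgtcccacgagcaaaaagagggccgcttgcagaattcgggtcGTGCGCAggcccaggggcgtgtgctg
Mt1 chr8:94178839-94179118 (+): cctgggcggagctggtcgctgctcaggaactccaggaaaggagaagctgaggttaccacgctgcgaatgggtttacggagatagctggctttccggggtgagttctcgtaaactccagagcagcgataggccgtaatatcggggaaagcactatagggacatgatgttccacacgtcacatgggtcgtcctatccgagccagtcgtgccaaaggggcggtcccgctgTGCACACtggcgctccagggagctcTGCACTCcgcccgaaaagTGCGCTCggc
Mmp3 chr9:7445572-7445851 (+): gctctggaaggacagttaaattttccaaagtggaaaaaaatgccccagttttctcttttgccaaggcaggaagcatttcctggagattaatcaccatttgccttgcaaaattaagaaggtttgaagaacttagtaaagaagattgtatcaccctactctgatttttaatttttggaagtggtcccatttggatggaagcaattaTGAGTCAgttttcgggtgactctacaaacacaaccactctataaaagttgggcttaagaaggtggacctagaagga
Mt2 had 4 matches, Mt1 had 3 and Mmp3 had 1. In a window of 300 bases, a metal response element occurred in 26.3% of the positive interaction genes with a promoter sequence (10 of 38), in 48.8% of the negative ones (21 of 43) and in 41.1% of all genes tested that had one (3855 of 9376). An AP-1 site occurred in 10.5%, 14.0% and 4.43%. A match describes letters and shows no binding.

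Genes of calcification included 3 positive calls among 20 tested, Spp1, Mgp and Ahsg. Mgp (chr6:136849433-136852821) encodes matrix Gla protein, which inhibits calcification of vessels and is among the most abundant transcripts of the wall. It had 5578, 6193, 10480, 8557 and 5651 in WT mice at 6 weeks, 4994, 4989, 4902 and 5125 in WT at 22 weeks, 7370, 7402, 8000, 8794 and 6580 in Ercc1Δ/− at 6 weeks and 11820, 10600, 13540 and 13240 in Ercc1Δ/− at 22 weeks. The Ercc1Δ/− mice of 22 weeks were above all others, and the WT mice of 22 weeks lay within a very narrow range below every WT mouse of 6 weeks. The interaction was 1.21 ± 0.22 (SE, adjusted p = 0.00702). Ahsg and Fetub, which encode the fetuins, circulating inhibitors of calcification and of proteases, lie 17926 bases apart on chr16 and had 1.62 ± 0.34 (SE, adjusted p = 0.0179) and 2.77 ± 0.48 (SE, adjusted p = 0.00488), with 1.34 (adjusted p = 0.0952) for Ahsg without WT mouse 018. Both are typical liver genes and had low counts here, at most 126 for Fetub.

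Cdkn1a (chr17:29309936-29319701), the p21 inhibitor of the cell cycle and a main target of p53, was one of the 8 interaction genes already different at 6 weeks. Its values were 189.6, 160.4, 141, 143 and 195 in WT mice at 6 weeks, 133, 152, 222 and 162 in WT at 22 weeks, 461, 354, 395, 331 and 397 in Ercc1Δ/− at 6 weeks and 665, 742, 709 and 567 in Ercc1Δ/− at 22 weeks. The genotypes were separate at both ages, and the Ercc1Δ/− mice of 22 weeks lay above those of 6 weeks. The difference was 1.19 at 6 weeks and 2.02 at 22 weeks, and the interaction 0.83 ± 0.20 (SE, adjusted p = 0.0453) was called in 6 of 18 fits without 1 mouse and was 0.79 (adjusted p = 0.159) without WT mouse 018. Of 36 p53 targets tested it was the 1 with an interaction called, while 6 were higher and 0 lower at 6 weeks and 13 higher and 1 lower at 22 weeks. Among 44 antioxidant genes under NRF2, Gpx1 (0.51 ± 0.12, SE, adjusted p = 0.0445, called in 2 of 18 such fits and 0.52, adjusted p = 0.116 without WT mouse 018) and Ftl1 were called, and Txnrd1 (0.48, adjusted p = 0.0895) and Srxn1 (0.58, adjusted p = 0.12) were not.

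Other positive genes with the smallest p were Prg4, the lubricin of joint and serous surfaces (3.35 ± 0.48, SE, adjusted p = 0.00488), Celf4, an RNA-binding protein of neurons (3.02 ± 0.49, SE, adjusted p = 0.00398), Tmem176a (1.64 ± 0.30, SE, adjusted p = 0.00691) and Fxyd5 (1.10 ± 0.20, SE, adjusted p = 0.00635). Markers of thymus, epithelium and mesothelium, the lining of serous surfaces, summed to 204.7 to 1458 in WT at 6 weeks, 167.8 to 811.0 in WT at 22 weeks, 209.5 to 775.2 in Ercc1Δ/− at 6 weeks and 719.9 to 1238 in Ercc1Δ/− at 22 weeks. Of 18 such genes 8 were tested, 0 had an interaction called by edgeR or DESeq2 (0 at p under 0.05 without adjustment), Krt5 and Foxn1 were at 0 in every AL group, and their part in the Prg4 result was not tested. Dio2, which activates thyroid hormone and is high in brown fat, was the 1 of 20 fat genes called (1.39 ± 0.31, SE, adjusted p = 0.0473), in 5 of 18 fits without 1 mouse, and had 1.28 (adjusted p = 0.166) without WT mouse 018. The summed count of the fat genes spanned 6117 to 16000 in Ercc1Δ/− at 22 weeks and 6446 to 8453 in WT at 22 weeks, none of the 20 was at 0, and their median interaction of 0.82 turned to −0.37 in males alone. The part of fat content in the Dio2 result was not tested. Genes tied to glucocorticoids and fasting gave 3 positive calls of 17 (Cdkn1a, Mt1 and Mt2).

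**Figure D2:**
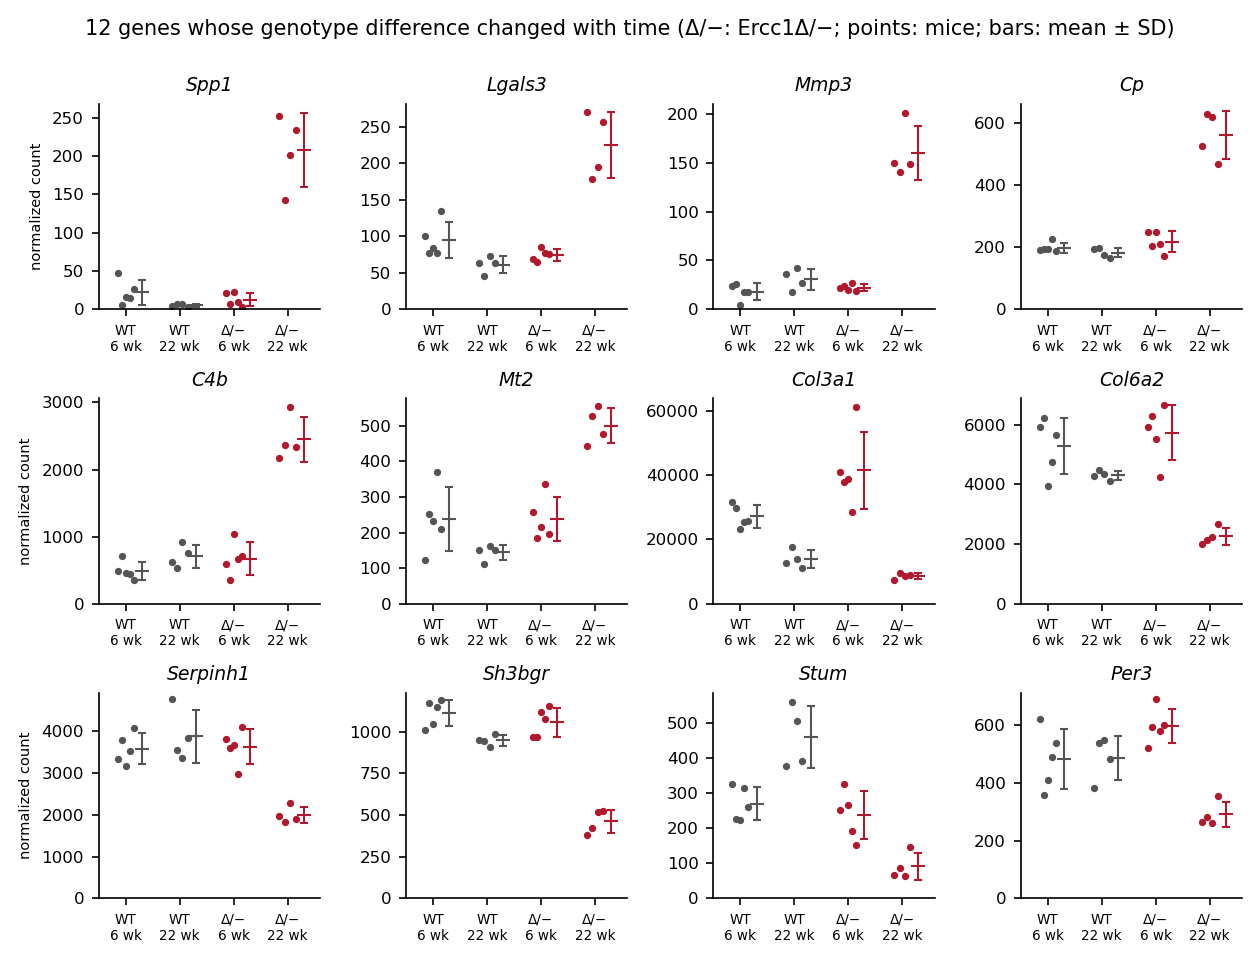
Normalized counts (vertical, from 0) of 12 interaction genes in each mouse, for WT (grey) and Ercc1Δ/− (red, labelled Δ/−) at 6 and 22 weeks, with the mean and SD beside the points. In Spp1, Lgals3, Mmp3, Cp, C4b and Mt2 the 4 Ercc1Δ/− mice of 22 weeks lie above all other mice, and in Col3a1, Col6a2, Serpinh1, Sh3bgr, Stum and Per3 they lie below them.

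Collagens gave 8 of the 58 negative interactions. Of 8 fibrillar collagens tested 2 were called (Col1a2 and Col3a1), and of 21 network and other collagens 6 were called negative (Col4a5, Col6a1, Col6a2, Col6a3, Col6a6 and Col14a1) and 1 positive (Col8a1). Col3a1 (chr1:45350698-45395840), a collagen of distensible tissue, had 31730, 29620, 23150, 25300 and 25660 in WT mice at 6 weeks, 12680, 17640, 13790 and 11050 in WT at 22 weeks, 40920, 37930, 38670, 28530 and 61120 in Ercc1Δ/− at 6 weeks and 7360, 9487, 8614 and 9073 in Ercc1Δ/− at 22 weeks. It fell in both genotypes, from higher values in Ercc1Δ/− than in most WT mice at 6 weeks to lower values than in every WT mouse at 22 weeks. The time change was −2.25 ± 0.18 (SE, adjusted p = 1.19e-07) in Ercc1Δ/− and −0.97 ± 0.17 (SE, adjusted p = 0.0126) in WT, and the interaction was −1.28 ± 0.24 (SE, adjusted p = 0.0109). The median genotype difference of the 8 fibrillar collagens was 0.31 at 6 weeks, where 1 was called higher and 0 lower, and −0.32 at 22 weeks, where 4 were called lower and 0 higher. Their median interaction was −0.63, with 6 values below and 2 above 0.

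Col1a2, a chain of the main collagen of the adventitia, had an interaction of −0.88 ± 0.18 (SE, adjusted p = 0.0166), or −0.74 (adjusted p = 0.0952) without WT mouse 018, and it too fell with time in WT (−0.65, adjusted p = 0.0268). Collagen VI forms beaded filaments around cells. The genes of its chains Col6a1 and Col6a2 are neighbours on chr10 with 83891 bases between them. Col6a2 (chr10:76429660-76459549) had 5913, 6222, 3937, 4750 and 5668 in WT mice at 6 weeks, 4288, 4469, 4362 and 4101 in WT at 22 weeks, 5933, 6301, 5511, 4265 and 6651 in Ercc1Δ/− at 6 weeks and 1993, 2147, 2246 and 2668 in Ercc1Δ/− at 22 weeks. The Ercc1Δ/− mice of 22 weeks were below all other mice, and the genotypes overlapped at 6 weeks. Its interaction was −1.02 ± 0.18 (SE, adjusted p = 0.00488), beside −0.86 ± 0.18 (SE, adjusted p = 0.0166) for Col6a1 and −0.97 ± 0.19 (SE, adjusted p = 0.0135) for Col6a3. Without WT mouse 018 Col6a2 stayed called, and Col6a1 had −0.73 (adjusted p = 0.0926), Col6a3 −0.87 (adjusted p = 0.0638), Col6a6 −0.99 (adjusted p = 0.0675) and Col14a1 −0.59 (adjusted p = 0.142), none of them called. Col6a6 also lost its call with no sex term in the fit (−1.22, adjusted p = 0.1). Col4a5, of the basement membrane, fell in both genotypes (−0.71 in WT, −1.41 in Ercc1Δ/−) and had −0.70 ± 0.13 (SE, adjusted p = 0.00981), or −0.59 (adjusted p = 0.053) without WT mouse 018. Col8a1, a short-chain collagen of endothelium and activated smooth muscle, had 1.22 ± 0.24 (SE, adjusted p = 0.0117).

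Genes that fold and crosslink this matrix include Serpinh1 and Loxl2. Serpinh1 (chr7:98994220-99005076) encodes HSP47, the chaperone of procollagen, and was the 1 called gene of 24 collagen processing genes. It had 3327, 3786, 3162, 3536 and 4084 in WT mice at 6 weeks, 4768, 3547, 3350 and 3844 in WT at 22 weeks, 3802, 3595, 3660, 2977 and 4110 in Ercc1Δ/− at 6 weeks and 1976, 1818, 2277 and 1904 in Ercc1Δ/− at 22 weeks. Every Ercc1Δ/− mouse of 22 weeks was below every other mouse, and the other 3 groups overlapped. The interaction was −0.95 ± 0.16 (SE, adjusted p = 0.00398), with 0.10 in WT over time.

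Loxl2, a lysyl oxidase that crosslinks collagen and elastin, had 227, 224, 249, 217 and 198 in WT mice at 6 weeks, 141, 145, 172 and 172 in WT at 22 weeks, 261, 214, 237, 196 and 252 in Ercc1Δ/− at 6 weeks and 71.2, 91.4, 72.5 and 102 in Ercc1Δ/− at 22 weeks. Both genotypes were lower at 22 than at 6 weeks without overlap, and the Ercc1Δ/− mice of 22 weeks were the lowest. Its interaction was −0.94 ± 0.17 (SE, adjusted p = 0.00635). Of 25 elastic fibre genes 4 were negative (Fbn1, Fbln5, Mfap4 and Loxl2) and 1 positive (Ltbp2), with a list median of −0.28. Fbn1, the fibrillin-1 of microfibrils, went from a difference of 0.39 at 6 weeks to −0.41 at 22 weeks, with −0.81 ± 0.17 (SE, adjusted p = 0.0191), or −0.64 (adjusted p = 0.115) without WT mouse 018. Mfap4, a microfibril-associated protein, had −0.85 ± 0.15 (SE, adjusted p = 0.00667), and Fbln5, which tethers elastin to cells, −0.68 ± 0.16 (SE, adjusted p = 0.0487), called in 5 of 18 fits without 1 mouse and −0.52 (adjusted p = 0.238) without WT mouse 018. Ltbp2, a binding partner of fibrillin, had 0.70 ± 0.14 (SE, adjusted p = 0.0155), or 0.66 (adjusted p = 0.0724) without WT mouse 018. With no sex term in the fit Ltbp2 had 0.575 (adjusted p = 0.367), not called. Its difference moved from −0.32 (adjusted p = 0.0919) at 6 weeks to 0.37 (adjusted p = 0.0243) at 22 weeks, and neither time change was called.

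The 16 genes of adventitial fibroblasts summed to 31580 to 36670 in WT at 6 weeks, 27630 to 33950 in WT at 22 weeks, 29580 to 36440 in Ercc1Δ/− at 6 weeks and 25090 to 34060 in Ercc1Δ/− at 22 weeks. The ranges of the 4 groups overlapped, no marker was at 0, and 0 of 16 had an interaction called by edgeR (1 positive and 4 negative at p under 0.05 without adjustment, and 0 positive and 3 negative called by DESeq2). The part of fibroblast content in the collagen values was not tested.

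Sh3bgr (chr16:96001595-96030138), a small protein of muscle with a glutamic acid-rich domain, had the smallest p of the negative genes. Among muscle marker genes edgeR and DESeq2 called 0 of 10 of smooth muscle identity, 0 of 9 of heart and 0 of 2 of skeletal muscle, with 5, 1 and 0 negative and 0 positive at p under 0.05 without adjustment. Its values were 1010, 1171, 1045, 1147 and 1187 in WT mice at 6 weeks, 949.8, 940.5, 910.1 and 988 in WT at 22 weeks, 967, 966, 1120, 1074 and 1156 in Ercc1Δ/− at 6 weeks and 382, 422, 516 and 525 in Ercc1Δ/− at 22 weeks. The Ercc1Δ/− mice of 22 weeks had counts below all others, and the genotypes overlapped at 6 weeks. The interaction was −0.96 ± 0.13 (SE, adjusted p = 0.000749).

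Casq1, calsequestrin, the calcium store of the sarcoplasmic reticulum, had 580, 628, 273, 614 and 313 in WT mice at 6 weeks, 426, 224, 483 and 366 in WT at 22 weeks, 471, 394, 374, 291 and 652 in Ercc1Δ/− at 6 weeks and 82.1, 83.0, 103 and 172 in Ercc1Δ/− at 22 weeks. Again only the Ercc1Δ/− mice of 22 weeks stood apart, below the other 14. Its interaction was −1.48 ± 0.23 (SE, adjusted p = 0.00262), or −1.69 (adjusted p = 0.131) with no sex term in the fit. Skeletal muscle markers, 15 genes, summed to 30.79 to 84.37 over the other 3 AL groups and to 34.84 to 1085 in Ercc1Δ/− at 22 weeks, with Myh8 at 0 in each group. Mamstr, a cofactor of MEF2 in muscle, had −2.03 ± 0.34 (SE, adjusted p = 0.00488). Cacna1g and Speg, named after their values were seen, encode a T-type calcium channel and a kinase of striated and smooth muscle, and had −1.79 ± 0.33 (SE, adjusted p = 0.00793) and −0.72 ± 0.17 (SE, adjusted p = 0.0353), the latter called in 5 of 18 fits without 1 mouse.

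Of 51 genes of smooth muscle contraction tested, 0 had a positive and 1 a negative interaction (Slc24a3, a potassium-dependent sodium and calcium exchanger, −0.57 ± 0.13, SE, adjusted p = 0.0262, called in 9 of 18 fits without 1 mouse and −0.57, adjusted p = 0.0811 without WT mouse 018), while 19 were negative and 0 positive at p under 0.05 without adjustment and 45 of 51 values were below 0. DESeq2 called 0 positive and 5 negative. At 6 weeks 14 were already lower and 0 higher, with a median of −0.31. At 22 weeks 37 were lower and 0 higher, with a median of −0.68. Myh11, the smooth muscle myosin heavy chain, had −0.61 (adjusted p = 0.273), and Cacna1c, the L-type calcium channel, −0.76 (adjusted p = 0.103). The 10 identity markers of smooth muscle summed to 138400 to 175800 in WT at 6 weeks, 142400 to 167000 in WT at 22 weeks, 104000 to 143700 in Ercc1Δ/− at 6 weeks and 75230 to 114000 in Ercc1Δ/− at 22 weeks, with none at 0. These markers include contractile genes such as Myh11, so their sum is not separate from the contraction list. The part of smooth muscle content in the contractile genes was not tested.

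In several genes WT moved with time as well. Stum, a membrane protein named for mechanosensing in flies, had 326, 227, 225, 314 and 259.8 in WT mice at 6 weeks, 378, 562, 508 and 393 in WT at 22 weeks, 253, 328, 266, 191 and 152 in Ercc1Δ/− at 6 weeks and 66.7, 86.2, 64.2 and 147 in Ercc1Δ/− at 22 weeks. WT mice were higher at 22 than at 6 weeks without overlap, and the Ercc1Δ/− mice of 22 weeks were below all others. The interaction was −2.22 ± 0.34 (SE, adjusted p = 0.00488), made of 0.77 in WT, not called, and −1.45 in Ercc1Δ/−.

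Tub, the tubby protein of ciliary transport, had 150.3, 139.7, 177, 171 and 196 in WT mice at 6 weeks, 263, 345, 221 and 260.2 in WT at 22 weeks, 133, 186, 199, 186 and 119 in Ercc1Δ/− at 6 weeks and 94.7, 86.2, 100.5 and 134 in Ercc1Δ/− at 22 weeks. It rose in WT, where the ages did not overlap (0.75, adjusted p = 0.0244), and fell in Ercc1Δ/− (−0.73, adjusted p = 0.0101), giving −1.48 ± 0.22 (SE, adjusted p = 0.00167). Gprasp1, a sorting protein for receptors, rose in WT (0.84, adjusted p = 0.00738) and had −0.15 (adjusted p = 0.669) in Ercc1Δ/−, with an interaction of −0.99 ± 0.20 (SE, adjusted p = 0.0155). The adjacent Gprasp2, named after its value was seen, had −1.32 ± 0.30 (SE, adjusted p = 0.0348), called in 8 of 18 fits without 1 mouse. Both overlap other genes on chrX, with which reads could be shared.

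Adm, adrenomedullin, a vasodilator peptide, crossed over. Its values were 175, 191, 124, 126 and 131 in WT mice at 6 weeks, 74.7, 85.7, 119.6 and 79.8 in WT at 22 weeks, 79.0, 65.2, 110.2, 86.6 and 90.7 in Ercc1Δ/− at 6 weeks and 98.3, 143, 151 and 117 in Ercc1Δ/− at 22 weeks. WT mice of 6 weeks were above all Ercc1Δ/− mice of that age, whereas at 22 weeks the groups overlapped with Ercc1Δ/− mostly higher. The difference went from −0.82 (adjusted p = 0.00896) to 0.56 (adjusted p = 0.0411), with a change of −0.79 (adjusted p = 0.0326) in WT and an interaction of 1.38 ± 0.24 (SE, adjusted p = 0.00488). Pdp2, a phosphatase that activates pyruvate dehydrogenase, was the 1 gene whose difference narrowed, for which it is named here after its values were seen. It had 169, 211, 253, 211 and 193 in WT mice at 6 weeks, 123, 122, 133 and 122 in WT at 22 weeks, 104, 90.3, 113, 135 and 113 in Ercc1Δ/− at 6 weeks and 129.9, 125, 114 and 117 in Ercc1Δ/− at 22 weeks. WT mice of 6 weeks were above all others and those of 22 weeks were at the level of Ercc1Δ/− mice. The difference was −0.86 (adjusted p = 0.000422) at 6 weeks and −0.05 (adjusted p = 0.841) at 22 weeks, and the interaction was 0.81 ± 0.18 (SE, adjusted p = 0.0258), called in 11 of 18 fits without 1 mouse.

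Scube3, a secreted protein of the cell surface, was already lower at 6 weeks (−0.65, adjusted p = 0.00465) and fell further, to −1.64 (adjusted p = 5.11e-08) at 22 weeks, with −0.99 ± 0.17 (SE, adjusted p = 0.00488). The clock gene Per3, a repressor of the circadian cycle, had 622, 357, 409.8, 491 and 537 in WT mice at 6 weeks, 381, 537, 548 and 484 in WT at 22 weeks, 523, 593, 690.3, 582 and 602 in Ercc1Δ/− at 6 weeks and 266, 284, 262 and 353 in Ercc1Δ/− at 22 weeks. The Ercc1Δ/− mice of 22 weeks were below all others, and the WT ages overlapped. Its interaction was −1.05 ± 0.20 (SE, adjusted p = 0.012), or −0.97 (adjusted p = 0.053) without WT mouse 018. Per3 was the 1 call by edgeR among 19 clock genes, of which 9 were negative and 2 positive at p under 0.05 without adjustment. DESeq2 called 0 positive and 3 negative. The sum of the clock genes was 4977 to 6056 in Ercc1Δ/− and 5265 to 10960 in WT at 22 weeks. At 6 weeks it was 6275 to 11790 in Ercc1Δ/− and 5718 to 10270 in WT. The part of the clock as a whole in the Per3 result was not tested.

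The negative genes with the smallest p also included Gm830 (−2.03 ± 0.31, SE, adjusted p = 0.00189), Syt15 (−1.64 ± 0.26, SE, adjusted p = 0.00359), a synaptotagmin, and Adam33 (−0.88 ± 0.15, SE, adjusted p = 0.00585), a metalloprotease of smooth muscle and fibroblasts. The genes not described further are named here after their values were seen. On the positive side they were Jaml, Osmr, Mfsd2a, Cdo1, Anxa1, Apod, Nbl1, Ivns1abp, Vmp1, Gda, Ucp2, Gfra1, Slpi, Sncg, Sphk1 and Pdgfc, with interactions from 0.59 to 4.22. On the negative side they were Astn2, Vstm2b, Pxdn, Fstl1, Tacc2, Wfdc1, Optc, Nnat, Ky, Gria1, Ccn5, Sh3pxd2a, Itga9, 5430431A17Rik, Haus8, Pkp4, Ncald, Fblim1, Pcsk5, Fat4, Galnt16, Adra1d, Nrep, Akap12, Kcnab1, Ihh and Nt5c3b, with interactions from −0.64 to −3.44. Ccn5, a matricellular protein, had −0.64 (adjusted p = 0.0876) without WT mouse 018 and −0.83 (adjusted p = 0.162) with no sex term in the fit. Of the interaction genes, Gprasp1, Gprasp2, Slpi and Vmp1 overlap another tested gene on the same strand, and 5430431A17Rik, Adam8, Astn2, Col6a6, Cp, Galnt16, Haus8, Htra4, Itga9, Loxl2, Mamstr, Mfap4, Nnat, Nt5c3b, Prg4, Scube3, Sncg, Tacc2, Timp4, Tmem176a and Tub overlap one on the opposite strand, with which reads could be shared.

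**Figure D3:**
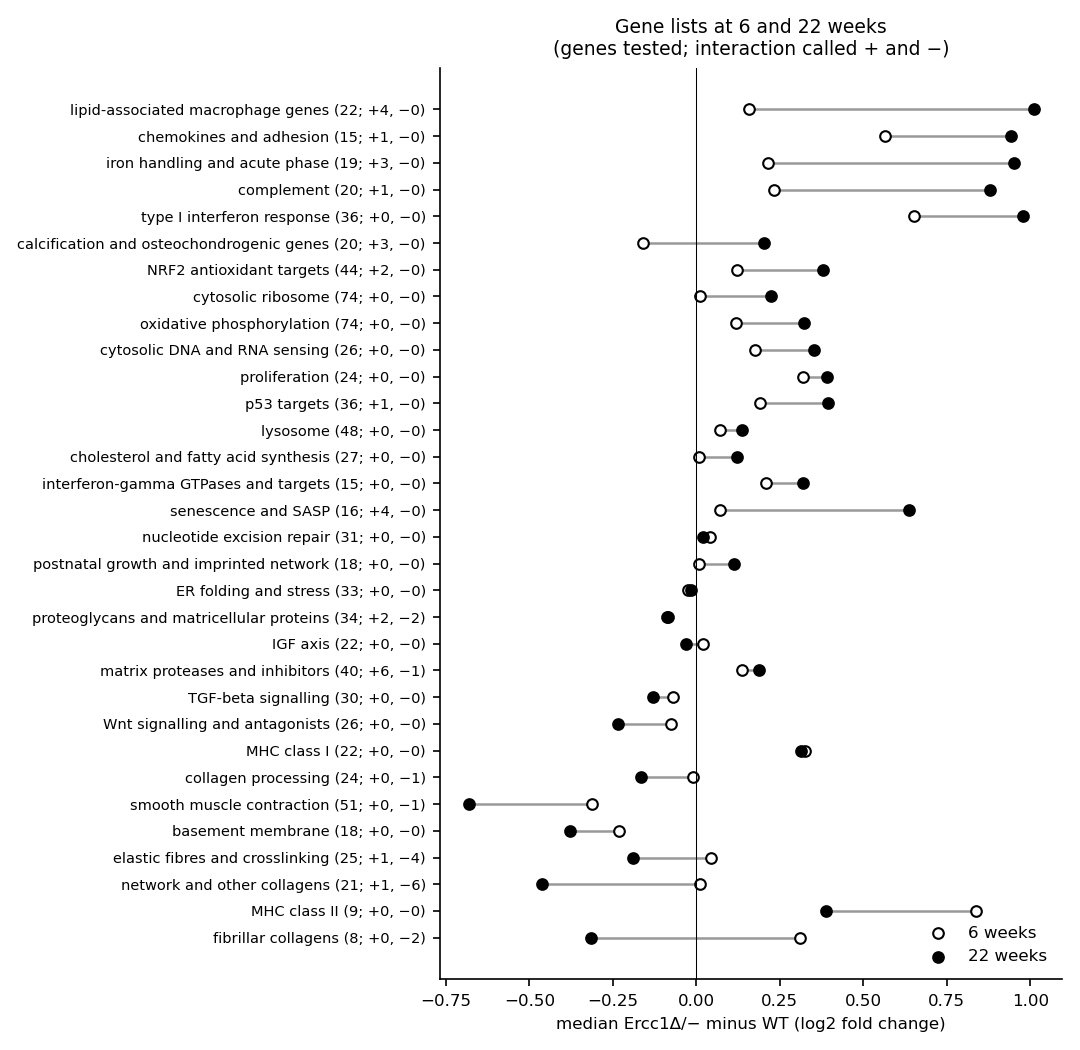
Median genotype difference (Ercc1Δ/− minus WT, log2, horizontal) of each gene list at 6 weeks (open) and 22 weeks (filled), with the lists ordered by their median interaction. The label gives the genes tested and the numbers with a positive and a negative interaction called. Lipid-associated macrophage genes moved from 0.16 to 1.01, fibrillar collagens from 0.31 to −0.32 and the type I interferon list from 0.65 to 0.98.

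Offset genes made up the contrasting class. They were called at 6 weeks, had no interaction called, and had a 95% interval of the interaction within 2-fold in either direction. There were 154, 33 higher (of 70 genes called higher at 6 weeks, 0.567% of those tested) and 121 lower in Ercc1Δ/− (of 140, 1.13%). A further 48 genes called at 6 weeks fell in neither class, with no interaction called and a 95% interval that reached beyond 2-fold. At 22 weeks 152 of the 154 kept the sign and 108 were called with it. The rule itself bounds the change from 6 to 22 weeks. These counts and the medians that follow therefore describe the class and do not support it. The median difference was 0.60 at 6 weeks and 0.70 at 22 weeks for the higher genes, and −0.55 and −0.58 for the lower ones. With a bound of 1.5-fold, 71 genes remained. The class states how large a change with time is still possible, and not that there was none.

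Many interferon-stimulated genes were higher already at 6 weeks. Of 46 genes of the type I response, which cells make when they sense foreign or misplaced nucleic acid, 36 were tested. By edgeR and by DESeq2 0 had an interaction called, 4 were positive and 0 negative at p under 0.05 without adjustment, and 35 of 36 values were above 0. At 6 weeks 11 were higher and 0 lower with a median of 0.65, at 22 weeks 31 were higher and 0 lower with a median of 0.98, and the median interaction was 0.32. The offset class held 7 of them (Irf9, Rigi, Xaf1, Bst2, Ifitm3, Parp9 and Lgals3bp).

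Lgals3bp (chr11:118280716-118292918), a secreted glycoprotein that binds galectins, had the largest 6-week difference among the named offset genes. Its normalized counts were 128, 116, 120.5, 137 and 111 in WT mice at 6 weeks, 99.0, 226, 275 and 102 in WT at 22 weeks, 401, 342, 365, 403 and 343 in Ercc1Δ/− at 6 weeks and 583, 841, 497 and 532 in Ercc1Δ/− at 22 weeks. The genotypes were separate at both ages, and the WT mice of 22 weeks fell into a lower and a higher pair. The difference was 1.62 (adjusted p = 0.00534) at 6 weeks and 1.76 (adjusted p = 0.000454) at 22 weeks, with an interaction of 0.15 (95% interval −0.63 to 0.92). Irf9, the DNA-binding part of the factor that type I interferon activates, had 0.64 (adjusted p = 0.00789), 0.89 (adjusted p = 9.58e-05) and 0.25 (95% interval −0.12 to 0.61). Irf7, the factor that amplifies interferon production, had 1.61 (adjusted p = 0.0269) and 2.60 (adjusted p = 4.65e-05). Its interaction, 1.00 (95% interval −0.04 to 2.03), was not called. Irf7 fell outside the offset class because that estimate lay at the 2-fold bound and its interval reached beyond it. Irf9 overlaps Rnf31 on the same strand, with which reads could be shared. Sting1, the adaptor of DNA sensing, had 0.35 (adjusted p = 0.822).

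Ifitm3, a membrane protein that blocks virus entry, had 301, 255, 193, 271 and 311 in WT mice at 6 weeks, 254, 381, 374 and 308 in WT at 22 weeks, 369, 372, 409.9, 521 and 534 in Ercc1Δ/− at 6 weeks and 775, 772, 806 and 786 in Ercc1Δ/− at 22 weeks. The genotypes did not overlap at either age, and the 4 Ercc1Δ/− mice of 22 weeks were the highest. It rose with time in Ercc1Δ/− (0.82, adjusted p = 0.00064) and its interaction of 0.53 (95% interval 0.12 to 0.95) was not called, although the unadjusted interval lies above 0. The promoters of Ifitm3 and Bst2 (tetherin, chosen after its values were seen) are shown because both hold the core of an interferon-stimulated response element, searched here as GAAANNGAA on both strands and written in capitals, in the same kind of window and build as above.
Ifitm3 chr7:141010715-141010994 (−): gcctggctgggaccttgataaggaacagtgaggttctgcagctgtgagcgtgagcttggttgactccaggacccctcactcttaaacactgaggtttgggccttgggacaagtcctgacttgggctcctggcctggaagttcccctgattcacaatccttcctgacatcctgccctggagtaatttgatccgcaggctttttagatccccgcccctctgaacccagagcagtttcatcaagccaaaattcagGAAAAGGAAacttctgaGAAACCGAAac
Bst2 chr8:71537443-71537722 (−): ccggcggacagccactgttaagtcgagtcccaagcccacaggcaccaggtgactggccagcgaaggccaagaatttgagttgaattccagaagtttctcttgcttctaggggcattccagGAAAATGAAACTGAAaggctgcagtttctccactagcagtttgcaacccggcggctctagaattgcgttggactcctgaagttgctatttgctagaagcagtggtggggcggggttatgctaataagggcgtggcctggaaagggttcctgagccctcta
Each had 2 matches, overlapping in Bst2. These letters occurred in 34.8% of the higher offset genes with a promoter sequence (8 of 23), in 8.74% of the lower ones (9 of 103), in 13.2% of positive and 18.6% of negative interaction genes and in 8.39% of all genes tested that had one (787 of 9376).

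Plk2, a kinase that p53 induces, had nearly the same difference at both ages. It had 30.2, 25.1, 16.1, 17.1 and 27.6 in WT mice at 6 weeks, 27.2, 23.5, 36.7 and 31.1 in WT at 22 weeks, 57.5, 59.6, 37.3, 46.1 and 75.1 in Ercc1Δ/− at 6 weeks and 70.3, 54.6, 69.8 and 52.3 in Ercc1Δ/− at 22 weeks. The genotypes were separate at both ages, and the ages overlapped within each genotype. The difference was 1.10 (adjusted p = 0.00729) at 6 weeks and 1.12 (adjusted p = 0.00154) at 22 weeks, with an interaction of 0.02 (95% interval −0.61 to 0.65). Itih4, an inter-alpha-trypsin inhibitor of the acute phase, had 1.02 (adjusted p = 0.00588) and 0.73 (adjusted p = 0.0177), and Heph, a ferroxidase, 0.94 (adjusted p = 0.00729) and 0.64 (adjusted p = 0.045). Col27a1, a collagen of cartilage, met the rule although its difference shrank from 0.64 (adjusted p = 0.00582) to 0.09 (adjusted p = 0.703), with an interaction of −0.55 (95% interval −0.91 to −0.19).

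The lower offset genes with the smallest p included receptors for the matrix. Bcam (chr7:19490056-19505165), a laminin receptor whose gene lies near the deleted Ercc1 gene on chr7, had the smallest p at 6 weeks. Its values were 4481, 5194, 4158, 4321 and 4549 in WT mice at 6 weeks, 4789, 4684, 4929 and 4792 in WT at 22 weeks, 2609, 2741, 2810, 2282 and 2239 in Ercc1Δ/− at 6 weeks and 2009, 2000, 2316 and 2215 in Ercc1Δ/− at 22 weeks. The genotypes lay far apart at both ages, with no Ercc1Δ/− mouse near the WT range. The difference was −0.83 (adjusted p = 1.73e-05) at 6 weeks and −1.15 (adjusted p = 7.25e-08) at 22 weeks. The interaction was −0.32 (95% interval −0.58 to −0.06), an unadjusted interval that lies below 0. The part of the position near Ercc1 in the Bcam difference was not tested.

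Itga8, the integrin subunit alpha 8 of smooth muscle, had 9645, 9575, 10720, 12190 and 8545 in WT mice at 6 weeks, 9427, 10030, 9424 and 9573 in WT at 22 weeks, 5904, 7395, 6135, 6952 and 4484 in Ercc1Δ/− at 6 weeks and 4617, 4690, 4624 and 4887 in Ercc1Δ/− at 22 weeks. It was lower in every Ercc1Δ/− mouse than in any WT mouse. The difference was −0.71 (adjusted p = 0.00198) at 6 weeks and −1.05 (adjusted p = 1.1e-05) at 22 weeks, with −0.34 (95% interval −0.69 to 0.00) for the interaction. Rasl12, a small GTPase, had −0.58 (adjusted p = 0.000454) and −0.72 (adjusted p = 1.61e-05), and Prss23, a serine protease, −0.87 (adjusted p = 3.55e-05) and −0.58 (adjusted p = 0.000998). Itga5, the fibronectin receptor subunit, and Rock1, a kinase that drives contraction, had differences nearer to 0 at 22 weeks (−0.50, adjusted p = 0.0291 and −0.45, adjusted p = 0.0348) than at 6 weeks (−0.97, adjusted p = 0.000454 and −0.77, adjusted p = 0.00228), with interactions of 0.46 (95% interval 0.05 to 0.88) and 0.32 (95% interval −0.06 to 0.70) that were not called.

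The smooth muscle contraction list held 14 offset genes. Acta2, smooth muscle actin, and Myocd, the coactivator that drives contractile genes, both named after their values were seen, had 6-week differences of −0.49 (adjusted p = 0.0261) and −0.84 (adjusted p = 0.0122) and interactions of −0.02 (95% interval −0.37 to 0.33) and 0.00 (95% interval −0.55 to 0.56). Srf, the partner of myocardin, had −0.40 (adjusted p = 0.461), and Jun, an immediate early gene, −0.57 (adjusted p = 0.669). Their 6-week differences were not called (−0.25, adjusted p = 0.454 and −0.43, adjusted p = 0.586).

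**Figure D4:**
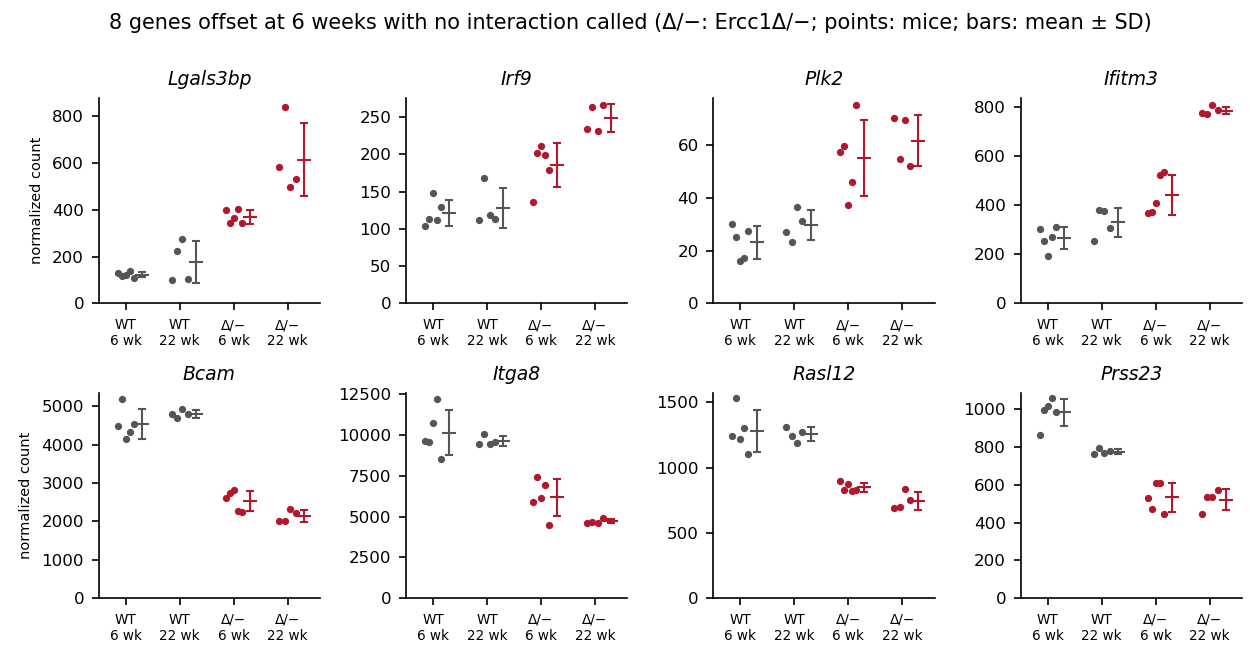
Normalized counts (vertical, from 0) of 8 offset genes in each mouse, for WT (grey) and Ercc1Δ/− (red, labelled Δ/−) at 6 and 22 weeks, with the mean and SD beside the points. Lgals3bp, Irf9, Plk2 and Ifitm3 are higher and Bcam, Itga8, Rasl12 and Prss23 lower in Ercc1Δ/− already at 6 weeks.

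Some genes changed with time in WT and had no interaction called. Sparc, a collagen-binding protein of growing matrix, fell in WT (−1.10, adjusted p = 7.64e-05) and in Ercc1Δ/− (−1.67, adjusted p = 2.1e-08), and its interaction was −0.57 (adjusted p = 0.137). Gbp8, an interferon-inducible GTPase, rose in WT (1.58, adjusted p = 0.00112) and in Ercc1Δ/− (1.84, adjusted p = 0.000356) while it was lower in Ercc1Δ/− at both ages (−1.40 and −1.13). It overlaps Gbp4 and Gbp9 on the same strand, with which reads could be shared. Ppic, a cyclophilin of the secretory route, fell in both (−0.74, adjusted p = 0.00191 and −0.84, adjusted p = 2.83e-05). Fam174b rose in WT (0.72, adjusted p = 0.00738) and had 0.06 in Ercc1Δ/−, with an interaction of −0.67 (adjusted p = 0.1).

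Among the lists in which edgeR called 0 interactions, DESeq2 called 0 for both MHC classes, ribosomal proteins, oxidative phosphorylation, TGF-beta signalling, the IGF axis and nucleotide excision repair, 1 negative for basement membrane and for heat shock, 2 negative for Wnt signalling and 1 positive for lysosome. At p under 0.05 without adjustment, oxidative phosphorylation had 0, TGF-beta signalling 3 positive and 4 negative, nucleotide excision repair 0 positive and 2 negative, each MHC class 1 positive and 0 negative, the IGF axis 2 positive and 1 negative, Wnt signalling 2 positive and 6 negative, heat shock 1 positive and 5 negative, basement membrane 0 positive and 4 negative and lysosome 9 positive and 0 negative. Ribosomal genes had a median interaction of 0.21 over 74 genes with 2 positive and 0 negative at p under 0.05 without adjustment. Heat shock genes were 12 lower and 0 higher at 22 weeks of 16 tested, and their sum was 16190 to 20860 in Ercc1Δ/− and 28880 to 36030 in WT at that age. At 6 weeks the sum was 16710 to 19440 in Ercc1Δ/− and 21480 to 26100 in WT, already without overlap. MHC class II genes, which present antigen, had a median interaction of −0.50 over 9 genes, which became 0.02 without WT mouse 018.

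In the 10 DR mice, which share no sample with the interaction, the genotype difference was called in 1415 of all genes (11.5%), 629 higher (5.09%) and 786 lower (6.36%). Of the 46 positive interaction genes 31 (67.4%) were higher in Ercc1Δ/− on DR and 0 lower, and of the 58 negative ones 31 (53.4%) were lower and 0 higher. Their median differences on DR were 0.97 and −0.52, beside 1.71 and −0.96 at 22 weeks on AL. For the offset genes 18 of 33 (54.5%) were higher and 102 of 121 (84.3%) lower, with 0 called in the opposite direction. Cdkn1a had 2.02 (adjusted p = 1.66e-06), Spp1 1.63 (adjusted p = 0.00121), C4b 1.72 (adjusted p = 0.00842) and Serpinh1 −0.98 (adjusted p = 0.00413). Some interaction genes had values near 0 on DR: Lgals3 (0.12, 95% interval −0.23 to 0.47), Gpnmb (0.09, 95% interval −0.21 to 0.39), Adm (0.04, 95% interval −0.27 to 0.35) and Fbn1 (0.12, 95% interval −0.07 to 0.31). The difference between the diets was not tested.

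**Figure D5:**
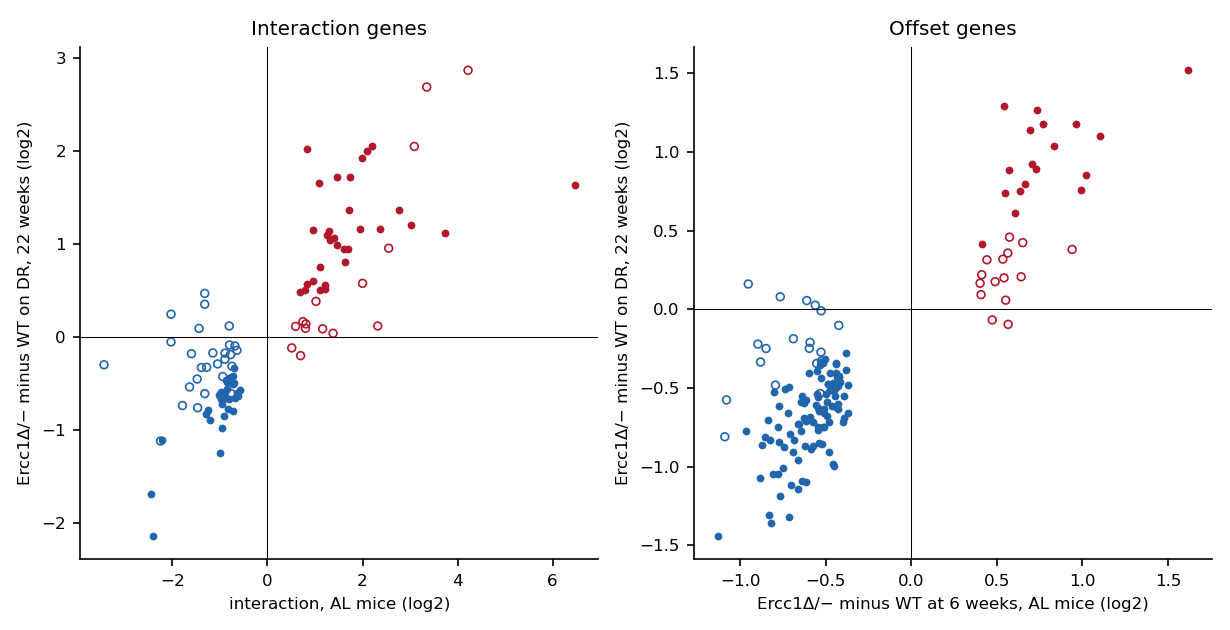
Genotype difference on DR at 22 weeks (vertical, log2) for the interaction genes against their interaction in AL mice (left) and for the offset genes against their difference at 6 weeks in AL mice (right). Red and blue mark genes positive and negative on the horizontal axis, and filled points are called on DR: 31 of 46 and 31 of 58 on the left, 18 of 33 and 102 of 121 on the right.

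Gene span was not used by the rule. Level enters it through the filter on counts and through precision, on which the calls and the bounded interval of the offset class depend. The median gene span was 15.08 kb for positive and 46.46 kb for negative interaction genes, 12.2 kb for higher and 61.76 kb for lower offset genes, and 25.89 kb for all genes tested. The median normalized count was 159 and 362 for the interaction genes, 152 and 759 for the offset genes, and 107.4 for all. Within 100 kb of each other lay 6 pairs of interaction genes, 5 with the same sign: Col6a1 and Col6a2, Mt1 and Mt2, Ahsg and Fetub, Gprasp1 and Gprasp2, and Car11 and Mamstr. These are descriptions, with no test.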

How the data were processed

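RNA of the aortic arch was sequenced after a strand-specific library preparation, 1 library per mouse. Per the labels, the authors used bcl2fastq (2.20), UMI-tools (1.1.2), fastp, STAR (2.7.10a) and HTSeq (2.0.2) on GRCm39, and deposited raw counts per gene, used here as deposited. The strand setting of the counting is not given in the sources used here. The 5 lines that name no gene held 12.6 to 17.0% of reads in the AL libraries and were left out. The library of sample 003 (400410 counts) was left out except as an alternative.

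A gene entered the fits if over 10 of the 28 samples held over 10 counts of it (12353 genes). Tests used edgeR's quasi-likelihood test (4.0.16), TMM scaling, group and sex as terms, and Benjamini-Hochberg adjustment over all genes at 0.05. Differences within an age, diet or genotype also had to reach 1.2-fold, and the interaction did not. Genotype on DR was fitted on the 10 DR samples alone. SEs were derived from the F statistic. Alternatives used DESeq2 (1.42.0), other scaling and filters, no sex term, thinned counts, males alone, and 1 mouse left out. The fits were checked on simulated data. Genes were named by rule: the 12 smallest p in each direction, called list members, 6 offset genes in each direction, genes the study features, up to 4 members of lists with few calls, and 3 genes each way with time in WT. The members, lists and rules were chosen with earlier results of these data known. Each p-value weighs a difference against the spread between mice, with an estimate of that spread shared by the groups of a fit. Counting error limits the low counts. The AL libraries used held 955589 to 9616382 counts on genes.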

Additional observations from a re-analysis of the deposited data

Results flagged for a closer look

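Of the 144 combinations of 36 genes and 4 groups examined for a mouse far from its group, 8 were marked, where chance marks about 1 in 20. Normalized counts were 21.06 for Celf4 in Ercc1Δ/− mouse 015 of 6 weeks (next 9.001), 225.5 for Cp in WT mouse 019 of 6 weeks (next 193.1) and 125.6 for Fetub in Ercc1Δ/− mouse 013 of 22 weeks (next 53.59). The WT mouse 018 of 22 weeks stood apart for Irf9 (168.6, next 118.8) and Itih4 (1726, next 1068). Itih4 was lowest in Ercc1Δ/− mouse 023 of 6 weeks (1636, next 2208). The Ercc1Δ/− mouse 013 of 22 weeks was highest for Mmp3 (200.9, next 149.7) and Rock1 (1487, next 1009).

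The change with time differed between the genotypes, by the test of the interaction itself, in 46 genes upward and 58 downward in Ercc1Δ/− relative to WT.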

How the results depend on the processing

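All 104 interaction genes kept their sign under every alternative, and 27 were called in each of the 10 other than males alone. The interaction count of 104 became 197 with DESeq2 (91 shared), 68 with counts thinned to 921167 per library (58 shared) and 53 tested against 1.2-fold. Genes that lost their call with thinned counts included Mmp3, Gpnmb, Adm, Celf4, Ahsg and Mamstr. The interaction count became 4 in males alone, where 102 of the 104 had p under 0.05 without adjustment. The alternatives, males alone included, reuse mice that gave the 104 genes. The kept signs and small p therefore describe these genes and do not support them. Without 1 mouse the interaction count ran from 55 (WT 018 of 22 weeks) to 134 (Ercc1Δ/− 027 of 6 weeks). The genotype count at 6 weeks, 210, became 378 with DESeq2, 130 thinned, 61 in males and 29 against 1.2-fold, and 102 to 226 without 1 mouse, lowest without WT 009 of 6 weeks. At 22 weeks, 1487 became 762 thinned, 361 in males and 697 against 1.2-fold, and 933 to 1692 without 1 mouse. Time in Ercc1Δ/−, 579, became 338, 128 and 240 in that order, and 322 to 748. Time in WT, 29, became 106 with DESeq2, 70 without a filter, 17 thinned, 9 in males and 3 against 1.2-fold, and 8 to 57. Genotype on DR, 1415, became 921 thinned and 556 against 1.2-fold, and 963 to 1523. A bound of 1.5-fold left 71 of 154 offset genes. Leaving out 1 mouse lowered these counts in some fits and raised them in others. The cause of these shifts was not tested. No paired analysis was possible because each mouse gave 1 sample with a number of its own. Low totals limit the precision of genes under about 10 counts.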
